A study of Mus musculus with 24 samples.

Results

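The genes described here encode secreted synaptic organizers and their receptors: the C1q-like proteins C1ql1, C1ql2 and C1ql3, the cerebellins Cbln1, Cbln2 and Cbln4, the neuronal pentraxin Nptx1, the pentraxin receptor Nptxr, and Adgrb3, a receptor of the C1q-like proteins. They were taken by name from the deposited table of read counts, which held 55417 entries; all 9 were found, and all 9 passed the filter on low counts. The rule went by name and function, and the group was selected on levels and differences from vehicle already seen in these libraries. RNA was sequenced in bulk from entorhinal cortex dissected out of adult mice aged 2 to 4 months. All groups had the genotype tg/tg and the strain Nop-tTA Line S crossed with TRE-GlyCl-YFP Line 9531, so the vehicle mice carried both transgenes too. Vehicle comprised 6 libraries, 4 of them from females, and each of days 1, 2 and 3 after GlyCl activation had 6, 3 from females. Nop-tTA drives expression from the neuropsin (Klk8) promoter, which is active mainly in superficial entorhinal neurons, and GlyCl is a chloride channel built on the glycine receptor that silences the neurons carrying it. The tissue held all its cell types, silenced or not. The agent that opens the channel and the time at which vehicle tissue was taken are not given in the labels.

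C1q-like proteins and cerebellins are small secreted proteins of the C1q family that assemble into multimers in the synaptic cleft. Cerebellins bind presynaptic neurexins on one side and delta glutamate receptors such as Grid1 on the other, and Cbln4 also binds the netrin receptors Neo1 and Dcc. C1q-like proteins bind Adgrb3 (also called BAI3), and at hippocampal mossy fibre synapses C1ql2 and C1ql3 bind neurexin-3 and recruit kainate receptors that contain Grik2 and Grik4. Neuronal pentraxins are secreted from axons and gather AMPA receptors beneath them; Nptxr is the membrane-bound member of that family and is cut from the surface by the protease Adam17. In the cortex, C1ql1 is known from oligodendrocyte precursors and Cbln4 from somatostatin interneurons, whereas C1ql2 is best known from dentate granule cells.

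Levels of marker genes in the labelled tissue are given here. No other tissue was at hand to compare, so they do not test what was dissected. All 7 superficial entorhinal markers (Reln, Calb1, Wfs1 and others) were measured, with a summed level of 818.5 to 1012 CPM (reads scaled for library size) in the 24 libraries. Klk8, one of them, was at 1.125 to 2.766 CPM. Deep cortical layer markers summed to 452.4 to 595.8 CPM and hippocampal CA field markers to 114.9 to 153.9 CPM. EYFP, the marker of the silencing transgene, was at 50.9 CPM or more in each library. EYFP fell at day 3, to 61.7 ± 9.82 CPM against 113 ± 19.5 CPM in vehicle (SD, n = 6 each; log2 difference -0.89 ± 0.11, edgeR adjusted p = 1.19e-05), with all 6 day 3 libraries below the lowest vehicle library. Glra1, the other gene of the transgene list, fell by 0.83 on the log2 scale at day 3 (adjusted p = 0.000636). Neither was called at day 1 or 2, and their part in the day 3 values below was not tested. Total counts were 16.6 to 23.7 M reads per library. Ttr, the main transcript of the choroid plexus, was at 561.9 to 1171 CPM in 8 libraries (1 vehicle, 2 day 1, 2 day 2 and 3 day 3) and at 8.37 to 25.9 CPM in the other 16. Library 6 of day 3 stood apart in cerebellar granule cell markers: Gabra6, Fat2, Cbln3 and Barhl1 summed to 7.24 CPM there and to at most 2.53 CPM in any other library. In bulk tissue, fewer cells of a type and less RNA per cell cannot be told apart.

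Promoter sequence was at hand for 4 of the 9 genes, C1ql2, C1ql3, Cbln4 and Adgrb3 (RefSeq, build GRCm38.p6). The 250 bases before the start site are printed for C1ql2 and Cbln4, whose levels differed most between day 3 and vehicle, and for C1ql3, the close relative of C1ql2 that shares its receptors. They run 5′ to 3′ on the strand of the gene, with each CpG in capitals. C1ql2 lies on the plus strand at chr1:120340332-120340581, C1ql3 on the minus strand at chr2:13010865-13011114, and Cbln4 on the minus strand at chr2:172043467-172043716.
C1ql2: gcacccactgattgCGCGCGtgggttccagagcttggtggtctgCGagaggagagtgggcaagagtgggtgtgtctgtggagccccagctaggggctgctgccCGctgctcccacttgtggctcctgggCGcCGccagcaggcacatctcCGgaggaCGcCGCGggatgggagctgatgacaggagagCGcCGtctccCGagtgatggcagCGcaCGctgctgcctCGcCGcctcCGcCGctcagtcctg
C1ql3: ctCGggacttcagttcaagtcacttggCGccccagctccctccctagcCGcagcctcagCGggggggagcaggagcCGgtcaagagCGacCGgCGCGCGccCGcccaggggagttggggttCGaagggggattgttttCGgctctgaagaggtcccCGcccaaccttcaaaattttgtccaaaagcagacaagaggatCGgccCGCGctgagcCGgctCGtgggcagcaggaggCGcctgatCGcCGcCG
Cbln4: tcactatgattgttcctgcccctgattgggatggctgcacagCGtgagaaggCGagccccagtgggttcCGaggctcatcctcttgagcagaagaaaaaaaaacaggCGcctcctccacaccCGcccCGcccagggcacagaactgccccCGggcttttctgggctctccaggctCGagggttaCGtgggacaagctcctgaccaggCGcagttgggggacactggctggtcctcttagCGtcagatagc
All of them hold more CpG than the median promoter. The C1ql2 window holds 20 CpG and 68.8% G and C, the C1ql3 window 23 and 66.4%, and the Cbln4 window 11 and 60.8%, where the median of 32851 mouse promoters is 6 CpG and 52.4%. At least as many CpG were found in 17.9% of promoters for C1ql2, 13.3% for C1ql3 and 35.6% for Cbln4. The Adgrb3 window holds 14 CpG, a count that 29.4% of promoters reach. Motifs of activity-dependent transcription were looked up in the 300 bases from 250 before to 50 after the start, on both strands. These were the cAMP response element TGACGTCA, found in 1.79% of promoters, the AP-1 site TGACTCA, found in 5.2%, and the EGR site GCGTGGGCG, found in 0.612%. These letters were not in the windows of C1ql2, C1ql3, Cbln4 or Adgrb3.

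To order the genes by level, CPM was divided by the length of the longest coding transcript in kilobases. Nptxr was by far the most abundant, at 277.9 CPM per kb on average (228.7 to 315.6 over the 24 libraries), followed by Nptx1 at 87.5 (76.7 to 99.7). Adgrb3 came next at 20.9 CPM per kb (18.9 to 23.8), a value that depends on the transcript chosen: over all its annotated exons it was 6.14. C1ql3 was at 14.5 CPM per kb (11.0 to 17.97), a value that may be too low if reads shared with opposite-strand transcripts were dropped. The ranges of these 4 genes did not overlap each other. Below them the ranges of neighbours overlapped, with Cbln4 at 10.5 CPM per kb, Cbln2 at 9.25, C1ql1 at 7.82, Cbln1 at 7.21 and C1ql2 at 5.02. Of the relatives, 2 were nearly silent: Cbln3, the cerebellin of cerebellar granule cells, was at 0.142 CPM per kb and C1ql4 at 0.0144.

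**Figure D1:**
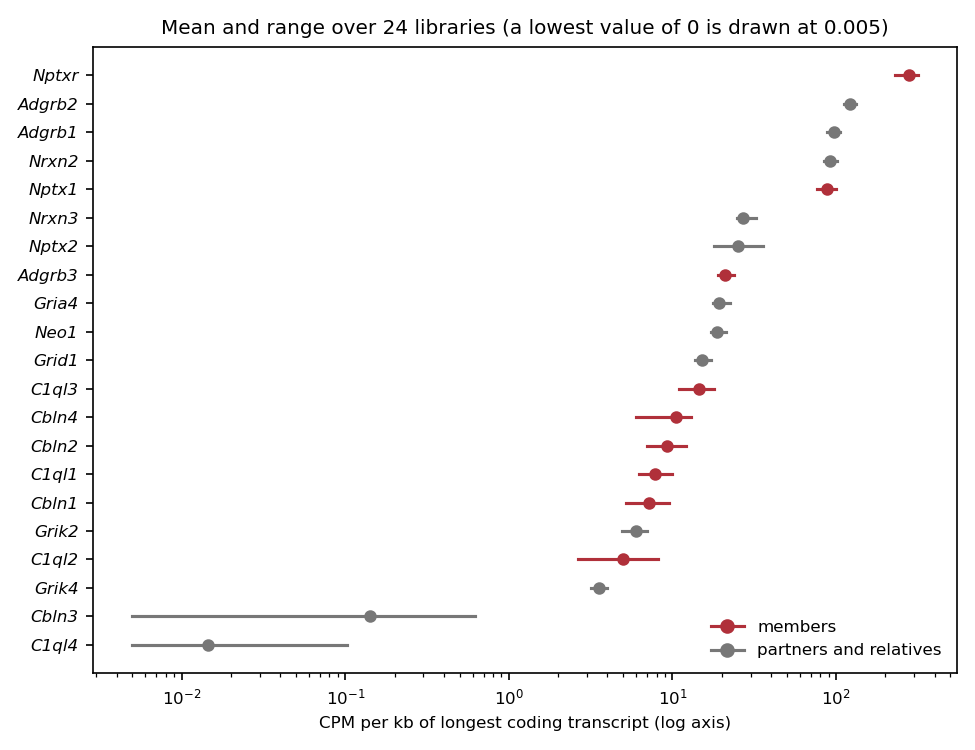
Level per length of the 9 organizer genes (red) and of some of their partners and relatives (grey), as CPM per kb of the longest coding transcript on a log axis; points are means over 24 libraries and lines run from the lowest to the highest library, with a lowest value of 0 drawn at 0.005. Nptxr, at 277.9, lies above every other gene drawn, and the C1q-like genes and cerebellins among the 9 lie between 5.02 and 14.5.

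Partners were present over a similar range. The neurexin genes Nrxn2 and Nrxn3 were at 91.97 and 27.1 CPM per kb, and the delta receptor gene Grid1 was at 15.1 CPM per kb. Neo1 was at 18.7, and the kainate receptor genes Grik2 and Grik4 were at 6.03 and 3.58. Gria4, the AMPA receptor subunit most closely tied to neuronal pentraxins, was at 19.2 CPM per kb, and Nptx2, the activity-induced pentraxin, at 25.2. The Adgrb3 relatives Adgrb2 and Adgrb1 were at 121.4 and 96.9 CPM per kb, both above Adgrb3.

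The comparison of each day with vehicle asked how these genes stood as silencing went on. The genes had been chosen with results of the same comparisons in view, so the differences below are a description and lend no support to one another. The 3 days also share the same 6 vehicle libraries.

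C1ql2 (ENSMUSG00000036907.12) was the C1q-like gene with the largest difference. The vehicle libraries ran between 5.26 and 11.97 CPM, with a median of 8.36. At day 1 the range was 6.90 to 10.8 CPM (median 7.97), at day 2 7.77 to 13.4 (median 10.3) and at day 3 9.20 to 16.3 (median 12.9). At day 3, 4 of 6 libraries lay above the highest vehicle library and 6 of 6 above the vehicle median, but the groups overlapped. The mean was 12.7 ± 2.79 CPM at day 3 and 8.45 ± 2.19 CPM in vehicle (SD, n = 6 each). The log2 difference from vehicle was 0.04 ± 0.16 at day 1, 0.34 ± 0.16 at day 2 and 0.60 ± 0.16 at day 3 (SE; 95% interval at day 3 0.28 to 0.93). It did not pass the threshold of an adjusted p under 0.05 at day 3 (edgeR quasi-likelihood test, Benjamini-Hochberg adjusted p = 0.0997). C1ql2 had 93 to 329 reads per library and 4666 in all, the lowest total of the 9 genes.

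Dentate granule cells are the best known source of C1ql2, so their markers are given beside it. All 8 were measured and 0 were called at any day; at day 3, 6 of the 8 had a log2 difference above 0, with a median of 0.05. They summed to 64.7 to 83.1 CPM at day 3 and 63.9 to 75.1 CPM in vehicle. Prox1, a transcription factor of these cells though not of them alone, was at 15.3 ± 1.72 CPM at day 3 and 14.7 ± 1.27 CPM in vehicle. The dentate marker score (the mean of the markers' centred log2 CPM) had a median of 0.13 at day 3 and -0.06 in vehicle, and the groups overlapped. It ran from 0.04 to 0.39 in the 8 libraries rich in Ttr and from -0.38 to 0.23 in the 16 poor ones. As a covariate it is therefore not separate from choroid plexus content. With the dentate marker score as a covariate, the day 3 difference of C1ql2 was 0.69 ± 0.16 (adjusted p = 0.0425). Without vehicle library 3 it was 0.71 ± 0.16 (adjusted p = 0.0268), and with the series of the animal number as a factor it was 0.74 ± 0.16 (adjusted p = 0.0218). Other libraries moved it the other way: it was 0.50 ± 0.16 without vehicle library 6 (adjusted p = 0.356) and 0.52 ± 0.17 without day 3 library 1 (adjusted p = 0.383). Among the 16 libraries poor in Ttr, C1ql2 was at 12.03, 14.9 and 16.3 CPM at day 3 and between 5.26 and 11.97 CPM in vehicle, without overlap, and the difference was 0.74 ± 0.17 (adjusted p = 0.0834). Of all genes, 2.25% lay wholly above vehicle in these 3 and 5 libraries.

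C1ql3 (ENSMUSG00000049630.7) differed little from vehicle. It was at 31.9 to 40.4 CPM in vehicle (median 33.9), 33.9 to 45.6 at day 1 (median 37.4), 27.9 to 42.1 at day 2 (median 37.9) and 31.9 to 42.9 at day 3 (median 36.8). The groups overlapped throughout. The log2 difference was 0.11 ± 0.09, 0.06 ± 0.09 and 0.08 ± 0.09 at days 1, 2 and 3, so the day 3 interval (-0.10 to 0.27) leaves room for a small difference either way. By sex the day 3 value was -0.08 ± 0.12 in females and 0.33 ± 0.10 in males. The male value rests on 2 vehicle libraries, and the gap was not tested. Both are poor in Ttr, whereas male day 3 libraries 3 and 6 are rich in it. Those had 42.3 and 42.9 CPM, and male day 3 library 5, poor in Ttr, had 37.0 CPM. Sex and choroid plexus content cannot be told apart there. C1ql3 overlaps the opposite-strand transcripts Gm37811 and Gm37824, which hold 279 and 587 reads over all libraries, and whether counting used strand is not given in the sources used here, so reads of these genes cannot be told apart.

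C1ql1 (ENSMUSG00000045532.6), which directs climbing fibre synapses in the cerebellum through Adgrb3, was at 10.4 to 14.5 CPM in vehicle (median 12.5), 11.7 to 13.0 at day 1 (median 12.2), 9.22 to 11.6 at day 2 (median 10.7) and 10.04 to 12.7 at day 3 (median 10.8). At day 2, 0 of 6 libraries were above the vehicle median and 2 of 6 were below the lowest vehicle library. The log2 difference was 0.01 ± 0.08 at day 1, -0.19 ± 0.08 at day 2 and -0.15 ± 0.08 at day 3 (adjusted p = 0.907 at day 2). Oligodendrocyte precursor markers, 6 of 6 measured and 0 called, summed to 211.3 to 243.9 CPM at day 2 and 220 to 254 CPM in vehicle; their part in the result was not tested.

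**Figure D2:**
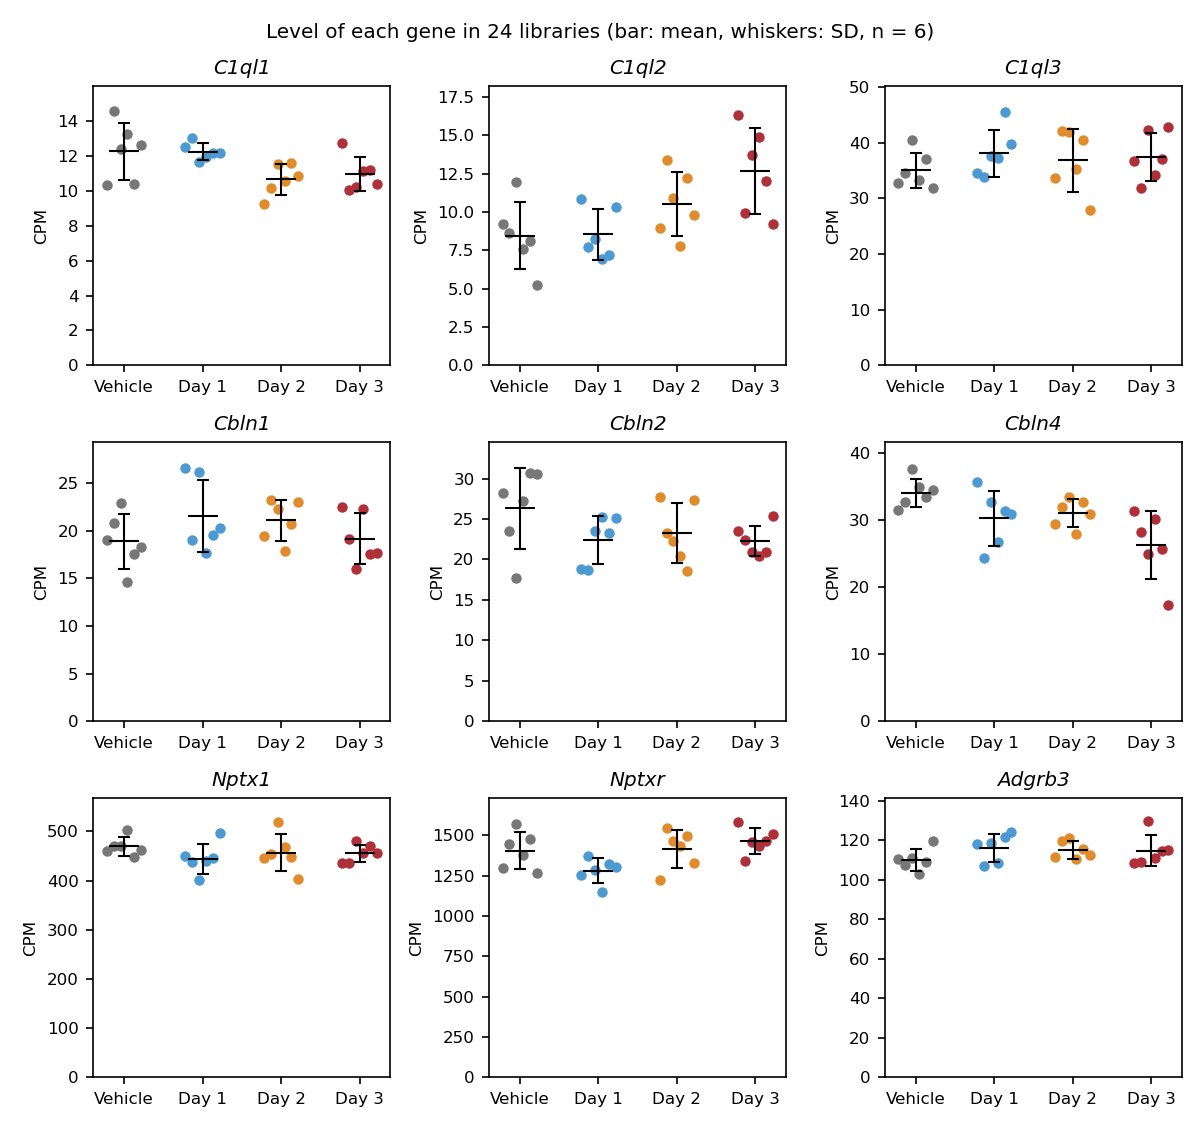
CPM of each of the 9 genes in every library of vehicle and days 1, 2 and 3 (points, 6 per group), with the group mean as a bar and the SD as whiskers; each axis starts at 0. At day 3, C1ql2 averaged 12.7 CPM against 8.45 CPM in vehicle, and all 6 Cbln4 libraries lie below the lowest vehicle library.

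Cbln4 (ENSMUSG00000067578.4) was lower at day 3 and was the only one of the 9 genes whose day and vehicle libraries did not overlap. It was at 31.5 to 37.6 CPM in vehicle (median 33.98), 24.3 to 35.7 at day 1 (median 31.1), 27.97 to 33.5 at day 2 (median 31.4) and 17.4 to 31.3 at day 3 (median 26.97). Below the lowest vehicle library lay 4 of 6 day 1 libraries, 3 of 6 day 2 libraries and 6 of 6 day 3 libraries. The mean was 26.3 ± 5.02 CPM at day 3 and 34.1 ± 2.09 CPM in vehicle (SD, n = 6 each). The log2 difference was -0.15 ± 0.09 at day 1, -0.11 ± 0.09 at day 2 and -0.36 ± 0.09 at day 3 (SE; 95% interval at day 3 -0.55 to -0.17), and it did not pass the threshold (edgeR adjusted p = 0.0886). Day 3 libraries lay wholly below vehicle for 14 of 16767 genes (0.0835%), and the genes had been chosen with these values known, so nothing is read from that. DESeq2 gave -0.36 ± 0.10 with an adjusted p of 0.0236. By sex the day 3 value was -0.21 ± 0.10 in females and -0.54 ± 0.14 in males (adjusted p = 1 and 0.354), and the difference between the sexes was not tested. The male value compares 3 day 3 libraries with 2 vehicle libraries. Day 3 libraries 3 and 6, both rich in Ttr, are among them, and the 2 vehicle libraries are poor in it. Sex and choroid plexus content cannot be told apart there.

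Cbln4 was lower in libraries rich in Ttr, and day 3 had the most of them. Over all groups its median was 27.4 CPM in the 8 libraries rich in Ttr (17.4 to 33.5) and 32.3 CPM in the other 16 (25.7 to 37.6). At day 3 the rich libraries had 17.4, 25.01 and 28.2 CPM and the poor ones 25.7, 30.2 and 31.3 CPM, where the 5 poor vehicle libraries ran between 31.5 and 37.6 CPM. Without the rich libraries the day 3 difference was -0.24 ± 0.07 (adjusted p = 0.402), and all 3 remaining day 3 libraries were below the lowest vehicle library, as they were for 1.46% of all genes. The lowest value of all, 17.4 CPM, came from day 3 library 6, which was also highest in the cerebellar granule cell markers. Without that library the difference was -0.28 ± 0.08 (adjusted p = 0.193). With the dentate marker score as a covariate it was -0.31 ± 0.10 (adjusted p = 0.323), and that score is not separate from choroid plexus content, as given above.

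**Figure D3:**
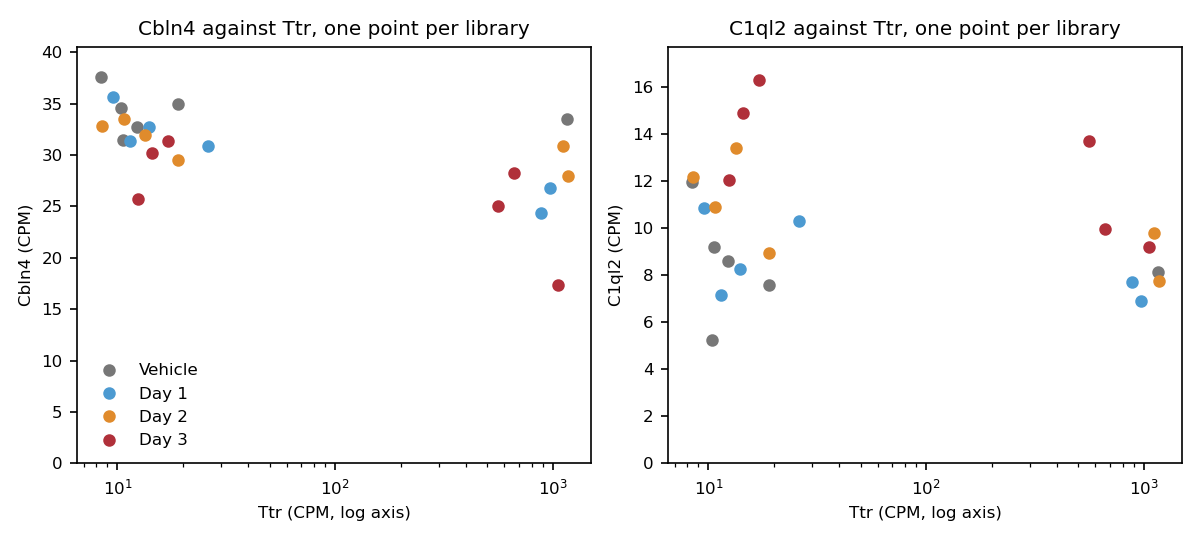
Cbln4 (left) and C1ql2 (right) in CPM against Ttr in CPM on a log axis, with 1 point per library, coloured by group. The 8 libraries rich in Ttr lie at 561.9 CPM or more; Cbln4 has a median of 27.4 CPM there and 32.3 CPM in the other 16 libraries.

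Cbln2 (ENSMUSG00000024647.15), which joins neurexins to Grid1 in the forebrain, was lower than vehicle on each day by about the same amount. Its range was 17.7 to 30.7 CPM in vehicle (median 27.8), 18.7 to 25.2 at day 1 (median 23.4), 18.6 to 27.8 at day 2 (median 22.8) and 20.5 to 25.4 at day 3 (median 21.7). Above the vehicle median lay 0 of 6 libraries at day 1, 1 of 6 at day 2 and 0 of 6 at day 3, but vehicle library 3, at 17.7 CPM, was below all 18 libraries of the 3 days. The log2 difference was -0.25 ± 0.11 at day 1, -0.19 ± 0.11 at day 2 and -0.26 ± 0.11 at day 3 (adjusted p = 0.581, 0.971 and 0.749). Without vehicle library 3 the day 3 value was -0.34. Interneuron markers, 9 of 9 measured and 0 called, summed to 1067 to 1194 CPM at day 3 and 1141 to 1259 CPM in vehicle. At days 1, 2 and 3, 1, 2 and 0 of the 9 had a log2 difference above 0, with medians of -0.11, -0.11 and -0.08. At an unadjusted p under 0.05 (edgeR) there were 3, 4 and 3, where the share over all genes was 7.25%, 5.20% and 5.64%. Their part in the values of Cbln2 and Cbln4 was not tested.

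Cbln1 (ENSMUSG00000031654.17), the founding cerebellin of the parallel fibre synapse, was at 14.7 to 22.9 CPM in vehicle (median 18.7), 17.7 to 26.6 at day 1 (median 19.9), 17.9 to 23.3 at day 2 (median 21.5) and 16.0 to 22.5 at day 3 (median 18.4). The groups overlapped on every day. The log2 difference was 0.21 ± 0.11 at day 1, 0.18 ± 0.11 at day 2 and 0.04 ± 0.11 at day 3 (adjusted p = 0.709, 0.980 and 0.999).

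Nptx1 (ENSMUSG00000025582.5), the secreted pentraxin of the group, was close to vehicle throughout. It was at 448.7 to 502.7 CPM in vehicle (median 467), 400.3 to 495.9 at day 1 (median 443), 403.8 to 519.9 at day 2 (median 451.1) and 435.2 to 479.9 at day 3 (median 455.5). Its log2 difference was -0.08 ± 0.05 at day 1, -0.05 ± 0.05 at day 2 and -0.05 ± 0.05 at day 3, and the 3 intervals together spanned -0.18 to 0.05. Nptx2, its activity-induced relative, stood at 51.9 ± 4.17 CPM at day 1 and 73.3 ± 14.2 CPM in vehicle, a log2 difference of -0.50 ± 0.12 (adjusted p = 0.114).

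Nptxr (ENSMUSG00000022421.21) was below vehicle on average at day 1 and above it at day 3. The range was 1264 to 1569 CPM in vehicle (median 1410), 1145 to 1372 at day 1 (median 1296), 1225 to 1542 at day 2 (median 1448) and 1340 to 1580 at day 3 (median 1462). At day 1, 0 of 6 libraries were above the vehicle median. At day 3, 5 of 6 were. The log2 difference from vehicle was -0.12 ± 0.05 at day 1, 0.02 ± 0.05 at day 2 and 0.07 ± 0.05 at day 3 (adjusted p = 0.576, 0.991 and 0.999). Between day 3 and day 1 it was 0.19 ± 0.05 (1465 ± 79.9 CPM at day 3 and 1281 ± 77.3 CPM at day 1; SD, n = 6 each; edgeR adjusted p = 0.0872), in a comparison that called 0.650% of all genes. The day 3 value over vehicle was -0.01 ± 0.06 in females alone and 0.21 ± 0.07 in males alone. The male value rests on 2 vehicle libraries, and the difference between the sexes was not tested. Both are poor in Ttr and male day 3 libraries 3 and 6 are rich in it, so sex and choroid plexus content cannot be told apart. Of 50-base stretches of Nptxr exons, 16.6% also occur in other annotated genes, so some reads may have been shared out or dropped.

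Adgrb3 (ENSMUSG00000033569.18), the adhesion receptor of the C1q-like proteins, was at 102.8 to 119.4 CPM in vehicle (median 109.6), 106.8 to 124 at day 1 (median 118.4), 110.6 to 121.2 at day 2 (median 114) and 108.6 to 129.6 at day 3 (median 112.8). All 6 day 2 libraries were above the vehicle median, but the groups overlapped on every day. The log2 difference was 0.07 ± 0.04, 0.06 ± 0.04 and 0.05 ± 0.04 at days 1, 2 and 3 (adjusted p = 0.783, 0.990 and 0.999).

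**Figure D4:**
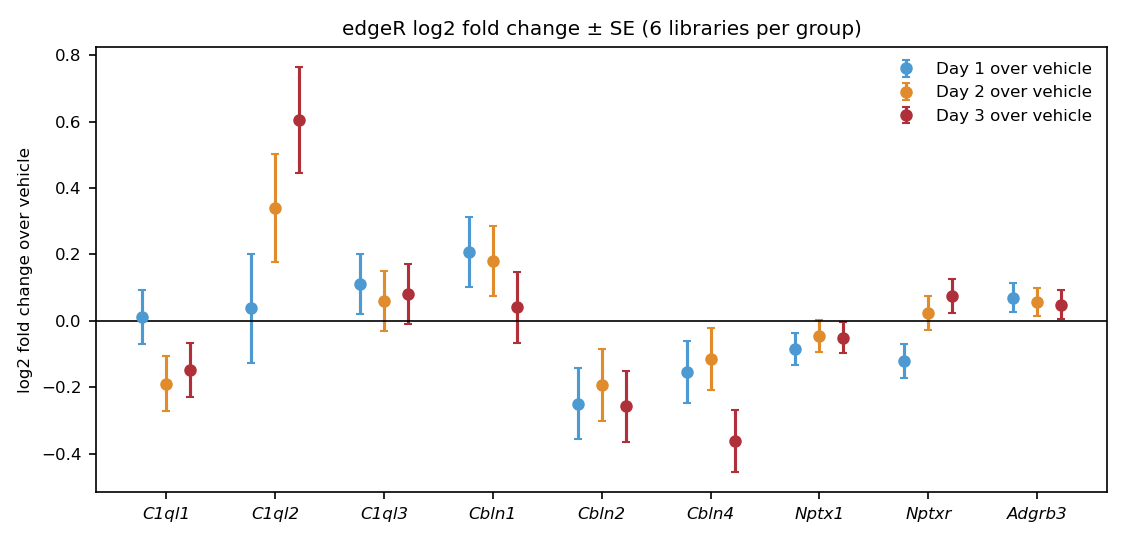
Log2 fold change of each gene over vehicle at days 1, 2 and 3 (edgeR, points, with SE as whiskers, 6 libraries per group); the line at 0 marks no difference. C1ql2 at day 3 (0.60) and Cbln4 at day 3 (-0.36) lie farthest from 0, and Nptx1 and Adgrb3 stay within 0.1 of it.

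Over the 9 genes, 0 were called on any day. Of all 16767 genes tested, 11 (0.0656%) were called at day 1, 11 (0.0656%) at day 2 and 103 (0.614%) at day 3, and the joint test of the 3 days called 108 (0.644%). At an unadjusted p under 0.05 there were 2, 2 and 3 of the 9 on days 1, 2 and 3, where the share over all genes was 7.25%, 5.20% and 5.64%. DESeq2 called Cbln4 at day 3, and with no filter on low counts edgeR called C1ql2, Cbln2 and Cbln4 at day 3. Without the filter 217 of all genes were called at day 3, against 103 with it. The differences of C1ql2, Cbln2 and Cbln4 stayed at 0.60, -0.26 and -0.36 there. Their SE was 0.10, 0.07 and 0.06, in place of 0.16, 0.11 and 0.09. The number of all genes called by DESeq2 is not given here. On each day 5 of the 9 were above vehicle and 4 below, and the median log2 difference was 0.01, 0.02 and 0.04 at days 1, 2 and 3, beside 0.0011, 0.0006 and -0.0016 over all genes. Since the genes were chosen with these values known, nothing is read from the counts.

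The partners of these proteins did not pass the test on any day. Of 22 listed receptors and ligands, 21 were measured and 0 were called at day 1, 2 or 3 (4, 1 and 0 at an unadjusted p under 0.05; DESeq2 also called 0 at days 1 and 2), with a median log2 difference of -0.01 at day 1, 0.02 at day 2 and 0.0013 at day 3. Nrxn3, the neurexin bound by C1ql2 and C1ql3, was at 213.4 ± 11.7 CPM at day 3 and 217.5 ± 14.1 CPM in vehicle. Grid1 was at 85.4 ± 5.67 CPM at day 3 and 86.7 ± 6.84 CPM in vehicle, and Neo1 was at 137.7 ± 3.67 CPM at day 3 and 136 ± 5.80 CPM in vehicle (SD, n = 6 each). Grik4, which C1ql2 and C1ql3 recruit, was at 21.6 ± 1.12 CPM at day 1 and 21.96 ± 1.14 CPM at day 2, against 19.8 ± 1.10 CPM in vehicle, log2 differences of 0.13 ± 0.06 and 0.16 ± 0.06 (adjusted p = 0.590 and 0.771). Adgrb1, a relative of Adgrb3, was at 582.7 ± 27.1 CPM at day 1 and 626.6 ± 20.3 CPM in vehicle (-0.10 ± 0.04, adjusted p = 0.450).

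Gria4 was at 98.2 ± 1.90 CPM at day 3 and 103.4 ± 6.17 CPM in vehicle, a log2 difference of -0.08 ± 0.05 (adjusted p = 0.969). Among 41 other trans-synaptic organizers (neuroligins, Lrrtm, Slitrk and teneurin genes among them), 41 were measured and 0 were called on any day (4, 3 and 3 at an unadjusted p under 0.05 at days 1, 2 and 3), with median log2 differences of 0.03, 0.02 and -0.02. Of 17 other C1q-domain and pentraxin genes, 14 were measured, and C1qb and C1qc, the complement subunits made by microglia, were higher at day 3. C1qb was at 40.5 ± 5.29 CPM at day 3 and 30.9 ± 3.77 CPM in vehicle (log2 difference 0.41 ± 0.08, adjusted p = 0.00738), and C1qc was at 35.7 ± 6.46 CPM at day 3 and 25.7 ± 3.68 CPM in vehicle (0.50 ± 0.12, adjusted p = 0.0376). Both calls were lost without day 3 library 1 and in either sex alone. These share the C1q domain with C1ql1, C1ql2 and C1ql3, whose day 3 differences were -0.15, 0.60 and 0.08.

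Sex was not part of how the genes were chosen, so it could be tested. Over 13 female and 11 male libraries, 0 of the 9 genes were called, beside 0.0716% of all genes (12 of 16767). At an unadjusted p under 0.05 there was 1 of 9, beside 1174 of all genes. That gene was Adgrb3, at 111.4 ± 5.40 CPM in females and 117.1 ± 6.30 CPM in males (log2 difference, female over male, -0.06 ± 0.03; edgeR adjusted p = 0.703). Nptxr was at 1421 ± 101.3 CPM in females and 1356 ± 126 CPM in males (0.07 ± 0.04, adjusted p = 0.737). Cbln4 was at 31.6 ± 3.52 CPM in females and 29.1 ± 5.06 CPM in males (0.10 ± 0.07, adjusted p = 0.754).

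Beyond the group means, some of the 9 genes varied together from library to library. Correlations were taken over the 24 libraries on log2 CPM after group and sex were fitted, as a description without a test, since libraries share dissection, depth and choroid plexus content; those named were picked for their size out of 36 pairs. C1ql3 and Nptxr tracked each other most closely (Pearson r = 0.755, Spearman rho = 0.777, r = 0.804 without the 2 libraries farthest from the median). C1ql2 and Cbln1 had r = 0.566 and rho = 0.615, Cbln1 and Cbln4 had r = 0.545 and rho = 0.661, and C1ql2 and Cbln4 had r = 0.529 and rho = 0.553. C1ql2, Cbln1 and Cbln4 also share lower levels in libraries rich in Ttr, with medians of 8.66, 17.8 and 27.4 CPM there and 10.6, 20.8 and 32.3 CPM in the poor ones. Cbln2 ran the other way, with r = -0.495 to Nptxr (rho = -0.397) and -0.449 to C1ql2 (rho = -0.361). In all, 23 of the 36 pairs were above 0 and 13 below.

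**Figure D5:**
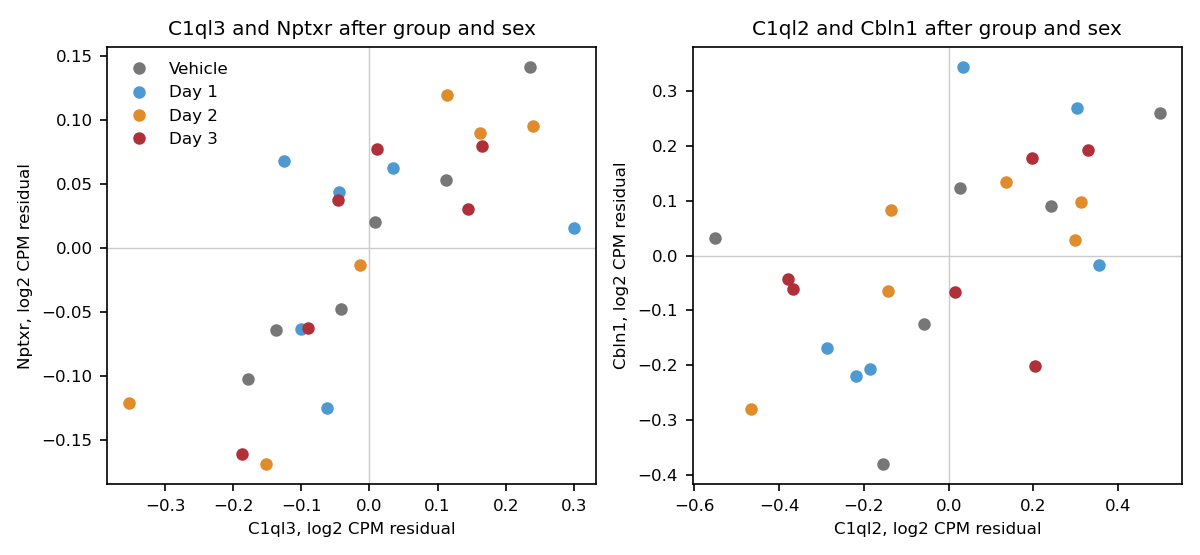
Residuals of log2 CPM after group and sex for C1ql3 and Nptxr (left) and for C1ql2 and Cbln1 (right), with 1 point per library, coloured by group. The points of C1ql3 and Nptxr rise together (r = 0.755), and those of C1ql2 and Cbln1 more loosely (r = 0.566).

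Marker scores were set beside the genes in the same way, as a description without a test. The relations named are a selection that holds none of Cbln1, of Cbln4 or of the choroid plexus score. Out of 144 relations between a gene and a marker list, the superficial entorhinal score was positively correlated with Nptxr (r = 0.642, rho = 0.622), C1ql3 (r = 0.538, rho = 0.553) and C1ql2 (r = 0.512, rho = 0.510). It was negatively correlated with Cbln2 (r = -0.640, rho = -0.607), which followed the interneuron score instead (r = 0.558, rho = 0.463). C1ql1 followed oligodendrocyte precursor markers (r = 0.489, rho = 0.563). Nptx1 ran against the interneuron score (r = -0.592, rho = -0.730). Adgrb3 followed the score of the silencing transgene (r = 0.691, rho = 0.727) and that of deep cortical layers (r = 0.612, rho = 0.643). Adgrb3 averaged 107.6 CPM in libraries rich in Ttr and 120.6 CPM in poor ones at day 1. At day 2 the means were 111.6 and 117 CPM, and at day 3 they were 118 and 111.4 CPM. The transgene score was likewise lower in the rich libraries at days 1 and 2 and higher at day 3. The part of choroid plexus content in these Adgrb3 relations was not tested. The value of C1ql2 against the dentate granule cell score was negative (r = -0.332, rho = -0.357). That score ran from 0.04 to 0.39 in the 8 libraries rich in Ttr and from -0.38 to 0.23 in the 16 poor ones. C1ql2 had a lower median in the rich ones, and the part of choroid plexus content in this value was not tested. Without the 2 libraries farthest from the median the correlations above kept their sign. The C1ql3 value for superficial entorhinal markers was then 0.439, the C1ql2 value 0.409 and the Cbln2 value for interneurons 0.389.

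For each gene the 3 genes most like it over the 24 libraries were found among 13358 genes, by the correlation of the same residuals. Picking the highest of so many correlations over 24 libraries gives large values even among unrelated genes. The values here and in the next paragraph are therefore a description, and none was tested. Nptxr had the closest neighbours: Nr2f2, the transcription factor COUP-TFII (r = 0.915), Myo5b, a myosin motor (0.884), and Ptpro, a receptor phosphatase (0.882). Those of C1ql3 were Pappa2, a secreted protease (r = 0.844), Spon1, the matrix protein F-spondin (0.829), and Hpcal1, a neuronal calcium sensor (0.823). Adgrb3 was most like Itfg1 (r = 0.873), Tnpo3, a nuclear import receptor (0.855), and Rab3gap1, a Rab3 regulator (0.853). Cbln2 was most like Gm11549 (r = 0.831), Lamp5, a membrane protein of a class of interneurons (0.802), and Syndig1, a synaptic membrane protein (0.793). Lamp5 is also in the interneuron score above, and the correlation of Cbln2 with that score was not taken without it.

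The neighbours of C1ql2 were Gprin1 (r = 0.816), Eid2b (0.812) and Ncdn, which encodes neurochondrin (0.806). Nptx1 was nearest to Rbfox2, a splicing factor (r = 0.818), Dapk1, a kinase (0.789), and Unc5a, a netrin receptor (0.772). The remaining genes had looser neighbours. For Cbln4 these were Nrip3 (r = 0.769), Gpd1l (0.747) and Klhl22 (0.743). For Cbln1 they were Ust, a sulfotransferase (r = 0.765), Grn, which encodes progranulin (0.764), and Mboat7 (0.747), and for C1ql1 Slc30a10, a manganese transporter (r = 0.765), Matn4, a matrix protein (0.765), and Zfp64 (0.752).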

How the data were processed

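The authors deposited a single table of raw, whole-number read counts per gene, with 24 library columns, all used. Per the submitters' processing notes, fastp 0.23.1, STAR 2.7.9a and DESeq2 1.32.0 were named with the build mm39; their roles, the counter, the annotation and the use of strand were not given in the sources used here. Symbols were found for 52083 of 55416 Ensembl identifiers. Groups came from the treatment label of each library. Each has its own animal number, but the labels do not state that each is a separate animal; if some are not, p-values reflect only how libraries vary. Depth, 16.6 to 23.7 M reads, set the precision of genes with few reads.

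Counts were tested with edgeR 4.0.16 (R 4.3.3; quasi-likelihood, two-sided, trimmed mean of M values, filterByExpr with a minimum count of 10 and total of 15, group and sex over all 24 libraries), which kept 16767 genes; a gene was called at a Benjamini-Hochberg adjusted p under 0.05. CPM used the scaled library sizes, and log2 CPM for scores and correlations a prior count of 2. For edgeR, SE is the size of the log2 difference divided by the square root of its F statistic, and the 95% intervals rest on it. For DESeq2, SE is that of the fit. Libraries above 100 CPM of Ttr were called rich. Transcript lengths came from a GENCODE annotation of GRCm38, and promoters from RefSeq. The fit was tested on simulated counts. Alternatives were other scaling and filters, DESeq2 1.42.0, limma voom 3.58.1, other covariates, subsets of libraries and leaving out each library; each sex alone was added after seeing the data. The 9 genes, the gene lists and the tests were chosen with earlier results of these data known. All 9 genes are named. Listed genes are named if called or if they stand beside a member, and for each member the 3 genes of highest correlation with a mean log2 CPM of at least 1.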

Additional observations from a re-analysis of the deposited data

Results flagged for a closer look

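Adgrb3 in day 3 library 3 stood at 129.6 CPM, far from the other 5 libraries of that group, which ran up to 115.3 CPM. Its gap to the nearest library, divided by the range of the group, was above Dixon's critical value for 6 libraries. Over the 9 genes and 4 groups, 36 such sets were looked at, and chance alone flags about 1 in 20. Without that library the day 3 difference of Adgrb3 over vehicle was 0.02 on the log2 scale, against 0.05 with it.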

How the results depend on the processing

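Over 37 alternatives, 979 of 999 log2 differences of the 9 genes from vehicle moved by less than the SD of the vehicle libraries, 12 moved by more and 8 became calls. With no filter on low counts, 3 of the 9 genes were called at day 3 and 4 in the joint test of the days, and 2 related genes (partners, relatives and other organizers) at day 1 and 1 at day 2. DESeq2, the animal number series as a factor and the dentate score as a covariate each called 1 of the 9 at day 3 (Cbln4 with DESeq2, C1ql2 with the others). Leaving out 1 library gave 0 to 1 called at day 3 and 0 to 1 in the joint test: C1ql2 without vehicle library 3 and Cbln4 without day 1 library 2 at day 3. Related genes called at day 3 (2) were 1 without the sex term, 1 without the libraries rich in Ttr, 1 with the dentate covariate, 0 in females, 0 in males and 0 to 3 when 1 library was left out. At day 1 (0) they were 1 with only the groups compared and 0 to 1 when 1 library was left out. The cause was not tested. Leaving out 1 library moved the day 3 difference of C1ql2 between 0.50 and 0.71 and of Cbln4 between -0.41 and -0.28. Calls over all genes ranged from 4 to 28 at day 1, 7 to 12 at day 2 and 72 to 110 at day 3 when 1 library was left out, and over the other alternatives from 0 (males) to 159 (no filter), 0 to 86 and 12 (males) to 217 (no filter), beside 11, 11 and 103 as reported. In males alone, with 2 vehicle libraries, the differences of C1ql3 were 0.25, 0.26 and 0.33 at days 1, 2 and 3. At day 3, sex and choroid plexus content cannot be told apart in that value. C1ql2, with the lowest total of reads of the 9, is most limited by depth. No paired analysis was possible because the labels give no replicate numbers; the animal number series, which groups share in part, was a factor in the fit named above.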
